A study of Mus musculus with 3 samples.

Results

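Myosin heavy chains were followed in 3 samples of normal mouse muscle, at the level of every probe set that the platform annotation assigns to exactly 1 of 9 genes: Myh1, Myh2, Myh3, Myh4, Myh7, Myh8, Myh9, Myh10 and Myh11. Of these, 8 genes had 14 such probe sets, out of 12394 genes and 20393 probe sets with a single gene. Myh10 was not analysed here, and neither were 2 probe sets assigned to both Myh6 and Myh7. The samples, called muscle 1, muscle 2 and muscle 3, carry the genotype "littermate control" and an age of 3 to 6 weeks, and served in the study as the normal reference for myogenic tumours derived from Pax7-expressing satellite cells. The labels do not name the anatomical muscle, and they do not say whether the 4-hydroxytamoxifen injection described for the tumour mice was given to the littermates. They also do not say whether the samples came from separate animals, so each SD measures how far these samples differ, for which a technical source is possible. With a single group there was no contrast between conditions.

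A myosin of class II is a hexamer with a pair of heavy chains, whose heads bind actin and hydrolyse ATP and whose coiled-coil tails assemble into filaments, and with essential and regulatory light chains on the neck of each head. The sarcomeric heavy chains set the contraction speed of a muscle fibre. Myh4, Myh1 and Myh2 encode the fast isoforms 2B, 2X and 2A, and Myh7 the slow isoform, which is also found in the heart. Myh3 and Myh8 encode the embryonic and perinatal isoforms that the adult chains replace as muscle matures. Myh11 is the heavy chain of smooth muscle. Myh9 and Myh10 encode non-muscle myosins 2A and 2B, which drive cell shape and movement in most cell types.

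In RefSeq's gene table for the mouse assembly GRCm38.p6, 5 of the 9 genes lie side by side on chromosome 11, in the order Myh3, Myh2, Myh1, Myh4, Myh8, followed by Myh13, with no other protein-coding gene between them. Myh10 is elsewhere on chromosome 11, Myh7 on chromosome 14, Myh9 on 15 and Myh11 on 16. The non-coding gene Myhas overlaps Myh1 in that table. Upstream sequences in RefSeq's table of the same assembly were found for 8 of the 9 genes, Myh11 being the exception. The 250 bases before the annotated start of the 5 clustered genes are given here because these genes make up the fast and developmental chains described below. Capitals mark an exact run of 14 bases that Myh1, Myh2, Myh4 and Myh8 share, matches to the MEF2 site and matches to TATAAA on either strand.
Myh4, chr11:67237562-67237811, plus strand: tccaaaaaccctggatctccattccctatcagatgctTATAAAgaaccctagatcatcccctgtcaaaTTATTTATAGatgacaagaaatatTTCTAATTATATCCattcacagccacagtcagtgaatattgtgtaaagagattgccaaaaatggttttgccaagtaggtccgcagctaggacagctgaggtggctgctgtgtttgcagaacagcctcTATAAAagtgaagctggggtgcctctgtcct
Myh1, chr11:67199852-67200101, plus strand: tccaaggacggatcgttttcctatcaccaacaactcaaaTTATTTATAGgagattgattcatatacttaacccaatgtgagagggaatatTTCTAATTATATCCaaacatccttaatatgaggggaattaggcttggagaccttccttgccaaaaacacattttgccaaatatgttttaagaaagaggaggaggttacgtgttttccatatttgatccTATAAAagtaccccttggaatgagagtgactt
Myh2, chr11:67170777-67171026, plus strand: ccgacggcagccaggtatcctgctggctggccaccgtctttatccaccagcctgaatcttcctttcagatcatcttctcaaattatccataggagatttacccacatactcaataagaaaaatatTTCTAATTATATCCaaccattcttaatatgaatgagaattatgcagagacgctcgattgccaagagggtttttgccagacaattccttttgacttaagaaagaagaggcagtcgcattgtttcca
Myh8, chr11:67276874-67277123, plus strand: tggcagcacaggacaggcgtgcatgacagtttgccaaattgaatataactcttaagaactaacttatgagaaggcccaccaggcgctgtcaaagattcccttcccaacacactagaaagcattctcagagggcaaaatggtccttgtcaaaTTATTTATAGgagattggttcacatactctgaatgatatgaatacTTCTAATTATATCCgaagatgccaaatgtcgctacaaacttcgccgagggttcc
Myh3, chr11:67078050-67078299, plus strand: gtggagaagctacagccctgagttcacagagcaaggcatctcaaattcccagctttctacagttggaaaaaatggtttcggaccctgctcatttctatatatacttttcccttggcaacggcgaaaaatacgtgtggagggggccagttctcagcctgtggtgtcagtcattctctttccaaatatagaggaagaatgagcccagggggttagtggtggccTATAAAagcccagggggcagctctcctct

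The shared run was TTCTAATTATATCC. Of 32851 upstream windows of this length in the table, several of which can belong to 1 gene, 4 held it on either strand, and they were those of Myh1, Myh2, Myh4 and Myh8. Myh1, Myh2 and Myh4 shared a longer stretch around it, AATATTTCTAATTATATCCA, which was found in these 3 windows only. The run began 158 bases before the annotated start in Myh4, 160 in Myh1, 125 in Myh2 and 54 in Myh8. It was chosen by a search for the longest stretch common to these genes, so its rarity elsewhere is a description. Matches to the MEF2 site, bound by the Mef2 factors of differentiated muscle, were found in Myh1, Myh4 and Myh8, each reading TTATTTATAG, and in 2.92% of all windows. Of the 9 heavy chain windows (Myh7 has 2), 5 held TATAAA on either strand, against 12.4% of all windows. In Myh8 that match is the reverse form TTTATA inside the MEF2 site, and in Myh9 it is also the reverse form. TATAAA itself began 31 bases before the start in Myh4, 32 in Myh1 and 29 in Myh3. CANNTG, the E-box bound by myogenic factors such as MyoD, was in 7 of the 9 windows and in 66.2% of all, the CArG box in Myh4 alone and in 1.47% of all, and the MCAT motif CATTCC in 4 of the 9 and in 12.6% of all. A match is a run of letters and no evidence of binding, and none of the expression values below tests it.

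**Figure D1:**
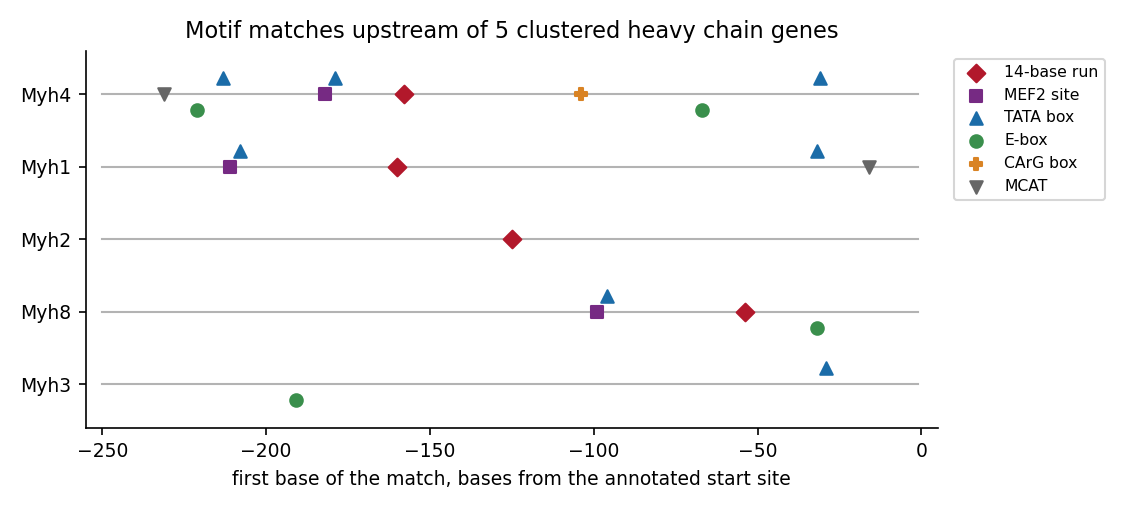
Matches to 6 sequence patterns in the 250 bases before the annotated start of 5 clustered heavy chain genes, placed by the first base of each match in bases from the start site; grey lines are the windows. The 14-base run (red diamonds) lies 158 and 160 bases before the start in Myh4 and Myh1, 125 in Myh2 and 54 in Myh8, and has no match in Myh3.

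Levels are log2 RMA values, 1 per probe set and array, on which a difference of 1 is 2-fold. The background of each array was set where 95% of 86 probe sets for genes of other organs (63 genes) fell below it, and a probe set is called detected in a muscle when it lies above it. Muscles 1, 2 and 3 had backgrounds of 5.62, 5.48 and 5.73. Probe sets bind their targets with different strength, so the levels of different probe sets, including those of 1 gene, are not ranked against each other. The number of arrays, 3, limits the precision. Muscle 3 was the muscle farthest from the mean of the others in 5033 of the 12508 probe sets detected in at least 1 muscle, muscle 2 in 3861 and muscle 1 in 3614. Muscle 3 was the farthest in 79 of the 98 probe sets with a range of at least 1, and in 11 of the 12 that varied in excess by limma's variance test at an adjusted p under 0.05. That test called 0 probe sets without muscle 1 (552 at an unadjusted p under 0.05), 2 without muscle 2 and 2 without muscle 3. The 3' minus 5' difference, a measure of RNA integrity, was 0.33, 0.43 and 0.37 for Gapdh and 0.76, 0.77 and 0.61 for Actb in muscles 1 to 3. All 7 measured genes that define skeletal muscle, such as the actin Acta1 and the creatine kinase Ckm, were detected in every muscle.

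Of the 14 heavy chain probe sets, 12 were detected in all 3 muscles and 2 in none, whereas over all 20393 probe sets 55.4% were detected in all and 38.7% in none. Each of the 8 genes had at least 1 probe set detected in all muscles, against 62.4% of all 12394 genes. The 2 probe sets below background belonged to Myh1 and Myh11, genes for which other probe sets were detected.

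**Figure D2:**
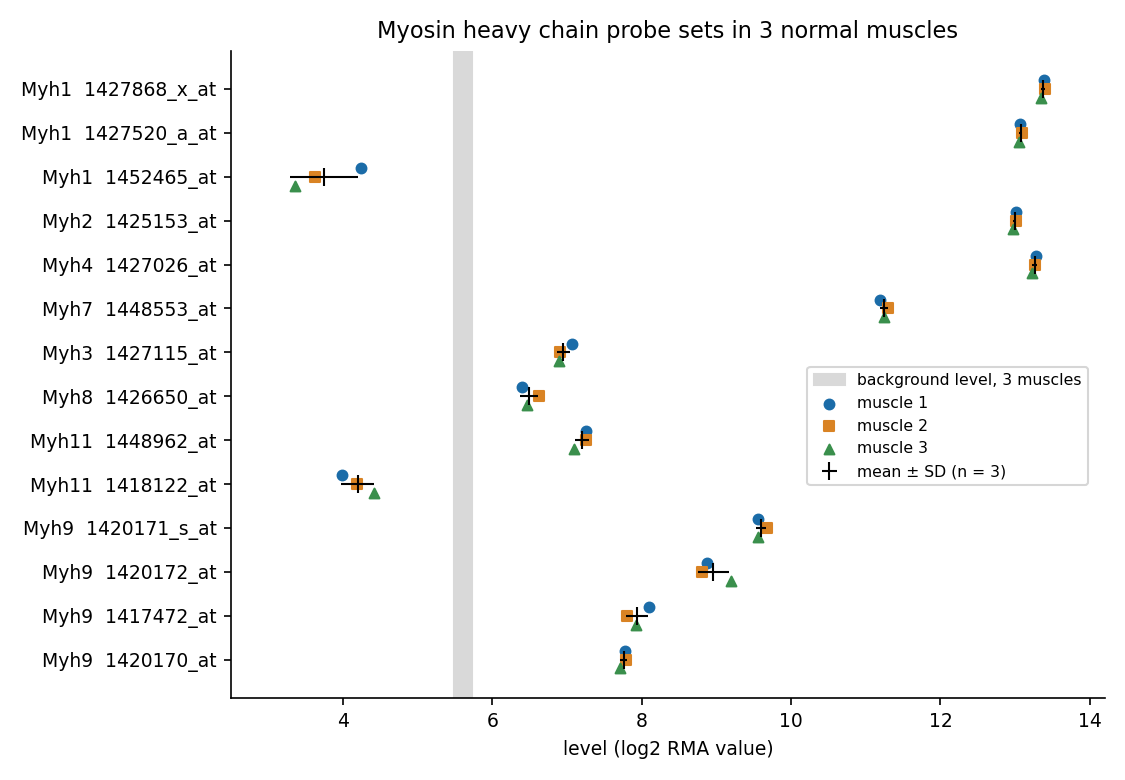
Levels of the 14 heavy chain probe sets in 3 normal muscles (log2 RMA value); coloured points are muscles, black bars the mean ± SD (n = 3), and the grey band spans the background levels of the arrays, 5.48 to 5.73. The fast chains lie between 12.97 and 13.39 apart from 1 Myh1 probe set at 3.36 to 4.24, and the Myh3 and Myh8 probe sets lie 0.73 to 1.44 above the background of their own array.

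The fast heavy chains gave near-identical values in the 3 muscles. Myh4, the chain of the fastest glycolytic fibres, gave 13.28, 13.27 and 13.23 in muscles 1, 2 and 3, a mean of 13.26 ± 0.03 (SD, n = 3; probe set 1427026_at). Myh2, the chain of fast oxidative fibres, was at 13.01, 13.01 and 12.97, a mean of 12.99 ± 0.02 (SD, n = 3; 1425153_at). For both genes muscle 3 was the lowest, and muscles 1 and 2 lay nearer to each other than to muscle 3. Myh1, the chain of 2X fibres, had 3 probe sets. The first, 1427868_x_at, was at 13.38, 13.39 and 13.34, with a mean of 13.37 ± 0.03 (SD, n = 3). The second, 1427520_a_at, was at 13.07, 13.10 and 13.05, with a mean of 13.07 ± 0.02 (SD, n = 3). Both placed muscle 2 highest and muscle 3 lowest. The suffix x marks a probe set in which some probes also match other transcripts, and the coding sequences of the fast chains are closely alike, so signal at 1427868_x_at may include RNA of neighbouring genes; 1427520_a_at carries no such mark.

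The third Myh1 probe set, 1452465_at, went against the other pair. It gave 4.24, 3.63 and 3.36 in muscles 1, 2 and 3, below background in each, with a mean of 3.74 ± 0.45 (SD, n = 3). It exceeded 65, 47 and 31 of the 86 background probe sets in muscles 1, 2 and 3. Its range of 0.88 was wider than that of any detected heavy chain probe set, but a value below background gives no order between muscles. The platform annotation ties it to the same sequence record as 1427520_a_at.

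The 4 detected fast probe sets lay between 0.35 and 0.77 below the highest value on their array. Whether the brightest probe sets were saturated could not be tested, and a true difference between muscles could be compressed there. Their ranges were 0.04 to 0.06, a ratio of 1.03 to 1.04 between the highest and the lowest muscle. All 4 were lowest in muscle 3, as were 41.3% of the 46 probe sets tested that were at least as high. Minus the mean of the others, they were at -0.05 to -0.03 there, a 1.02- to 1.04-fold difference. After quantile normalization of the 3 columns Myh2 turned to 0.0027, while the other 3 stayed negative. No fast chain varied in excess of probe sets of like level: the adjusted p of limma's variance test was 0.99 for each of the 4.

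The slow heavy chain Myh7 gave 11.18, 11.30 and 11.24 in muscles 1, 2 and 3, a mean of 11.24 ± 0.06 (SD, n = 3; 1448553_at). Here muscle 2 was highest and muscle 1 lowest, and muscle 3 minus the mean of the others was -0.0024. The range of 0.12 was a 1.08-fold difference. Its SD was larger than that of 75.8% of the 500 probe sets nearest in level, whose median SD was 0.036, and limma's variance test gave an adjusted p of 0.99. Since Myh7 is also found in the heart, a list of cardiac genes was set beside it. Of its 10 measured genes, 9 were below background in every muscle. They included the cardiac chain Myh6 at 4.09 ± 0.33 and the natriuretic peptide gene Nppa at 4.00 ± 0.23 (SD, n = 3). The exception within this list was Myl4, a light chain also found in developing skeletal muscle. Some genes of cardiac muscle were placed in other lists: Actc1 and Tnnt2 were detected in all 3 muscles and Mybpc3 in 2.

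Both developmental heavy chains were detected in all 3 muscles. Embryonic Myh3 gave 7.06, 6.90 and 6.89 in muscles 1, 2 and 3, a mean of 6.95 ± 0.09 (SD, n = 3; 1427115_at), above all 86 background probe sets on each array. Muscle 1 was highest and the other pair differed by less than 0.01. Perinatal Myh8 was at 6.39, 6.62 and 6.46, a mean of 6.49 ± 0.12 (SD, n = 3; 1426650_at), with muscle 2 highest and muscle 1 lowest. It exceeded 84 of the 86 background probe sets in each muscle, and it was not detected in all muscles when the background was set at the 99th percentile. The ranges, 0.16 for Myh3 and 0.23 for Myh8, correspond to 1.12- and 1.17-fold, and their SDs were below the medians of probe sets of like level, 0.11 and 0.13. The muscle that was highest differed between Myh3 and Myh8. Neither varied in excess: the adjusted p of limma's variance test was 0.99 for each. Of 7 other genes of developing muscle, 6 (against 62.4% of all genes) were detected in all 3 muscles. Among them were cardiac actin Actc1 at 13.43 ± 0.02, the fetal light chain Myl4 at 7.32 ± 0.05 and Tnnt2 at 6.10 ± 0.12 (SD, n = 3). Further probe sets of Myl4 and Tnnt2 were below background in every muscle, with means of 5.10 and 5.04. The count of 6 became 4 at the 99th percentile, and 4 with the mean of each gene's probe sets. The fetal acetylcholine receptor subunit Chrng was at 5.60 ± 0.10 (SD, n = 3) and above background in muscle 2 only.

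Smooth muscle heavy chain Myh11 had a pair of probe sets that disagreed. The first, 1448962_at, was detected throughout and gave 7.25, 7.25 and 7.09 in muscles 1, 2 and 3, a mean of 7.20 ± 0.09 (SD, n = 3). Muscle 3 was the lowest, at -0.16 relative to the mean of the others. The second, 1418122_at, was below background in every muscle, at 3.98, 4.19 and 4.41, a mean of 4.19 ± 0.22 (SD, n = 3), with muscle 3 the highest. The platform annotation ties both to the same sequence record. Averaged over both probe sets Myh11 was no longer detected in all 3 muscles. Of 12 genes of smooth muscle and pericytes, 10 were detected in all muscles, with Acta2 at 11.24 ± 0.02, Tagln at 9.23 ± 0.08 and Smtn at 8.33 ± 0.03 (SD, n = 3). The Acta2 value is that of a probe set with the suffix s, so it may include RNA of other genes. A further probe set of Acta2 was below background in every muscle, with a mean of 3.33. With probe sets of suffix x or s left out, the count of 10 became 9. Cnn1, a calponin of contractile smooth muscle, was at 5.73 ± 0.13 (SD, n = 3) and detected in 2 muscles, and the smooth muscle coactivator Myocd was at 3.91 ± 0.10 and in none. The list as a whole had a median departure of -0.03 in muscle 3, and that of all probe sets tested was also -0.03. Of its genes 5 of 11 were higher there, against 39.2% of all probe sets tested. In whole tissue, a lower level from fewer cells of a type and one from less RNA per cell cannot be told apart.

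Non-muscle heavy chain Myh9 had 4 probe sets, all detected in every muscle, and they did not place the same muscle highest. Probe set 1420171_s_at gave 9.55, 9.67 and 9.56 in muscles 1, 2 and 3, a mean of 9.60 ± 0.07 (SD, n = 3). Probe set 1420172_at was at 8.88, 8.81 and 9.19, a mean of 8.96 ± 0.20 (SD, n = 3). Muscle 3 was thus apart, 0.35 above the mean of the others, where the first had muscle 2 apart. Probe set 1417472_at was at 8.09, 7.80 and 7.92, a mean of 7.94 ± 0.15 (SD, n = 3), with muscle 1 highest. Probe set 1420170_at was at 7.78, 7.79 and 7.70, a mean of 7.76 ± 0.05 (SD, n = 3), with muscle 3 lowest and muscle 2 just above muscle 1. The suffix s marks probes that match several transcripts, which can come from more than 1 gene. No muscle was highest for all 4 probe sets of Myh9, and none was lowest for all 4.

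The probe set 1420172_at had the widest range of any detected heavy chain probe set, 0.38 or 1.30-fold. Its SD was larger than that of 97.6% of the 500 probe sets nearest in level. Its unadjusted p by limma's variance test was 0.024, the only one of the 12 tested heavy chain probe sets under 0.05, and its adjusted p was 0.92. The excess was therefore not past the threshold among 12508 probe sets. Without muscle 3 the lowest unadjusted p was instead that of 1417472_at, 0.040, with an adjusted p of 0.97.

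Over all members the muscles differed little. The median SD of the 12 detected probe sets was 0.063 and their median range 0.12, against 0.093 and 0.18 over all 12508 probe sets tested, a comparison that takes no account of level. Set against probe sets of like level, 8 of the 12 had an SD below the median of their neighbours. The SD ran from 0.022 for Myh2 to 0.20 for 1420172_at of Myh9. None of the 12 had a range of 1 or more, against 0.783% of all tested. By limma's variance test 0 of the 12 varied in excess at an adjusted p under 0.05, against 0.0959% of all tested (12 probe sets), and 1 did at an unadjusted p under 0.05, against 612 of 12508. The adjusted p ran from 0.92 to 0.99. In simulated data the test called 38% of probe sets in which 1 muscle was moved by 1, so it can miss a 2-fold difference. The moved probe sets were drawn at random over all levels, and the share at the level of each heavy chain was not measured.

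**Figure D3:**
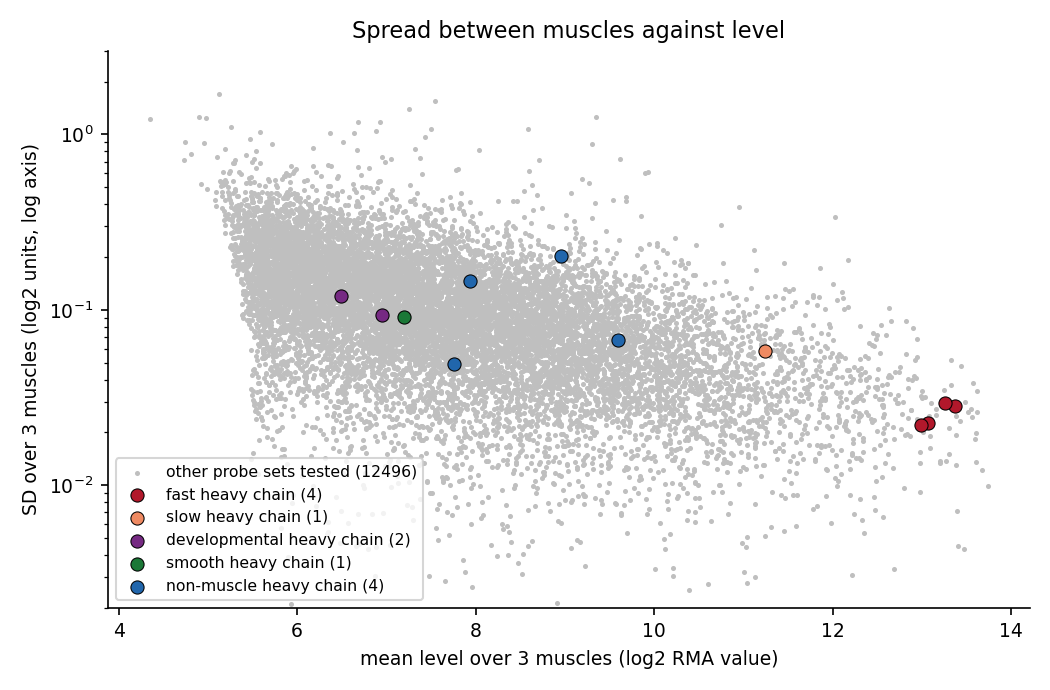
SD over the 3 muscles (log axis) against mean level (log2 RMA value) for 12508 probe sets tested; grey points are other genes and coloured points the 12 detected heavy chain probe sets by kind. SDs fall as levels rise; the 4 fast probe sets lie at SDs of 0.022 to 0.029, and the highest coloured point is the Myh9 probe set with an SD of 0.20.

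Of the 12 detected probe sets, 7 were lowest in muscle 3, against 45.4% of all tested. Muscle 3 was the muscle farthest from the mean of the others for 6, against 40.2%. These 12 probe sets stand for 8 genes, Myh9 alone having 4, and the shares were not compared by a test. Relative to the mean of the others 11 were lower in muscle 3, against 60.8% of all tested, with 1420172_at of Myh9 the exception. After quantile normalization of the 3 columns the count was 8, against 52% of all tested, since Myh2, Myh7 and 1417472_at of Myh9 changed sign. The median departure of the members in muscle 3 was -0.05, where that of all probe sets tested was -0.03; in muscles 1 and 2 it was 0.02 and 0.03. Without muscle 3 the median in muscle 1 turned to -0.0056.

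**Figure D4:**
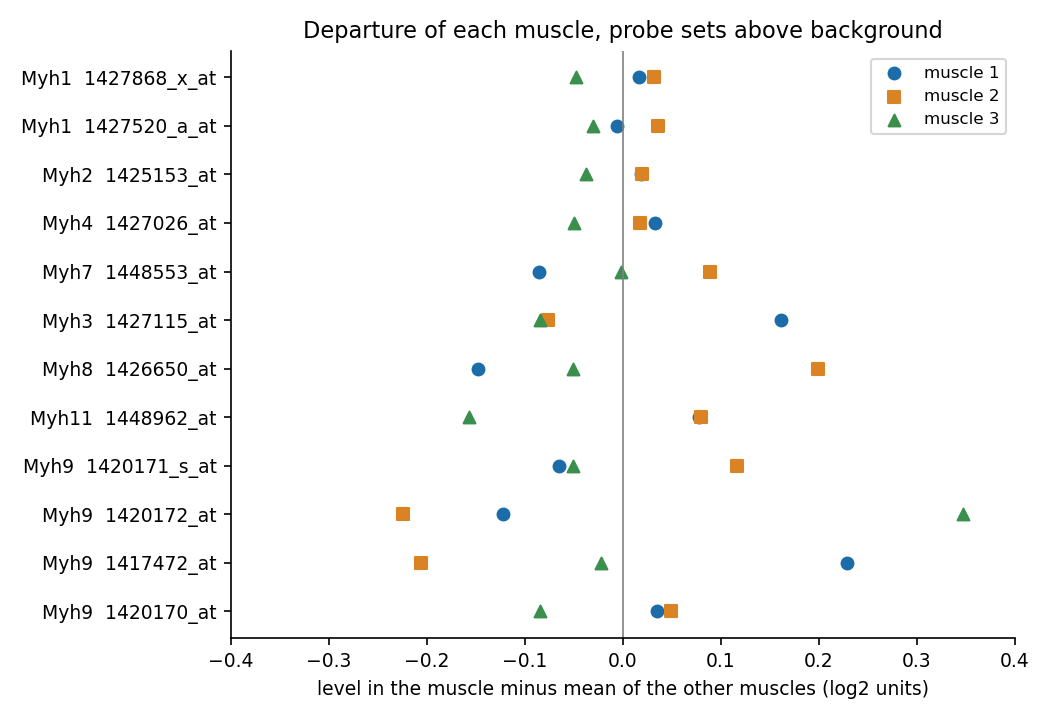
Level in each muscle minus the mean of the other muscles (log2 units) for the 12 detected heavy chain probe sets; points are muscles and the vertical line is 0. Muscle 3 (green triangles) is left of the line in 11 of 12, down to -0.16, and right of it only for Myh9 probe set 1420172_at, by 0.35.

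The genes that act with these chains were mostly detected in all 3 muscles, where 62.4% of all genes were. Of 6 sarcomeric light chains, 5 were detected in all 3 muscles: the fast chains Myl1 and Mylpf were at 13.61 ± 0.03 and 13.55 ± 0.03, the slow chains Myl2 and Myl3 at 12.44 ± 0.02 and 11.58 ± 0.05 (SD, n = 3), and Myl4 as given above. The atrial light chain Myl7, at 4.71 ± 0.18, was detected in none. Of 5 light chains of smooth and non-muscle myosin, 4 were detected in all. The regulatory chain Myl9 was at 9.17 ± 0.03 and Myl12a at 11.50 ± 0.06, while the essential chain Myl6 had the widest range of the list and gave 6.92, 7.15 and 7.33 in muscles 1, 2 and 3. Its adjusted p by limma's variance test missed the threshold, as did those of all 132 tested probe sets of the listed genes that are no member, of which 12 (9.09%) had an unadjusted p under 0.05, against 4.89% of all tested.

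All 4 measured enzymes acting on light chains were detected in every muscle: the kinases Mylk of smooth muscle and Mylk2 of skeletal muscle at 9.09 ± 0.03 and 10.76 ± 0.02, Rock1 at 9.07 ± 0.06 and the phosphatase subunit Ppp1cb at 11.17 ± 0.07 (SD, n = 3). Of 5 genes of the thick filament and M-band, 4 were detected in all, with the myosin-binding protein Mybph at 11.37 ± 0.03, myomesins Myom1 and Myom2 at 11.80 ± 0.01 and 11.64 ± 0.05, and titin (Ttn) at 13.25 ± 0.03. The cardiac myosin-binding protein Mybpc3 was at 5.62 ± 0.12 and was detected in muscles 2 and 3. The 4 measured genes of myosin folding and turnover were all detected. The chaperone genes Unc45a and Hsp90aa1 were at 6.27 ± 0.06 and 9.57 ± 0.06, the methyltransferase gene Smyd1 at 9.02 ± 0.18 and the ubiquitin ligase gene Trim54 at 9.65 ± 0.11 (SD, n = 3). Smyd1, needed for assembly of sarcomeric myosin, had the widest range of these, 0.36, with muscle 1 highest and muscle 2 lowest. These values are those of each gene's highest probe set; further probe sets of Myl4, Myl12b, Mylk, Unc45a and Smyd1 were below background in every muscle, with means of 5.10, 3.89, 3.83, 5.19 and 3.30.

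**Figure D5:**
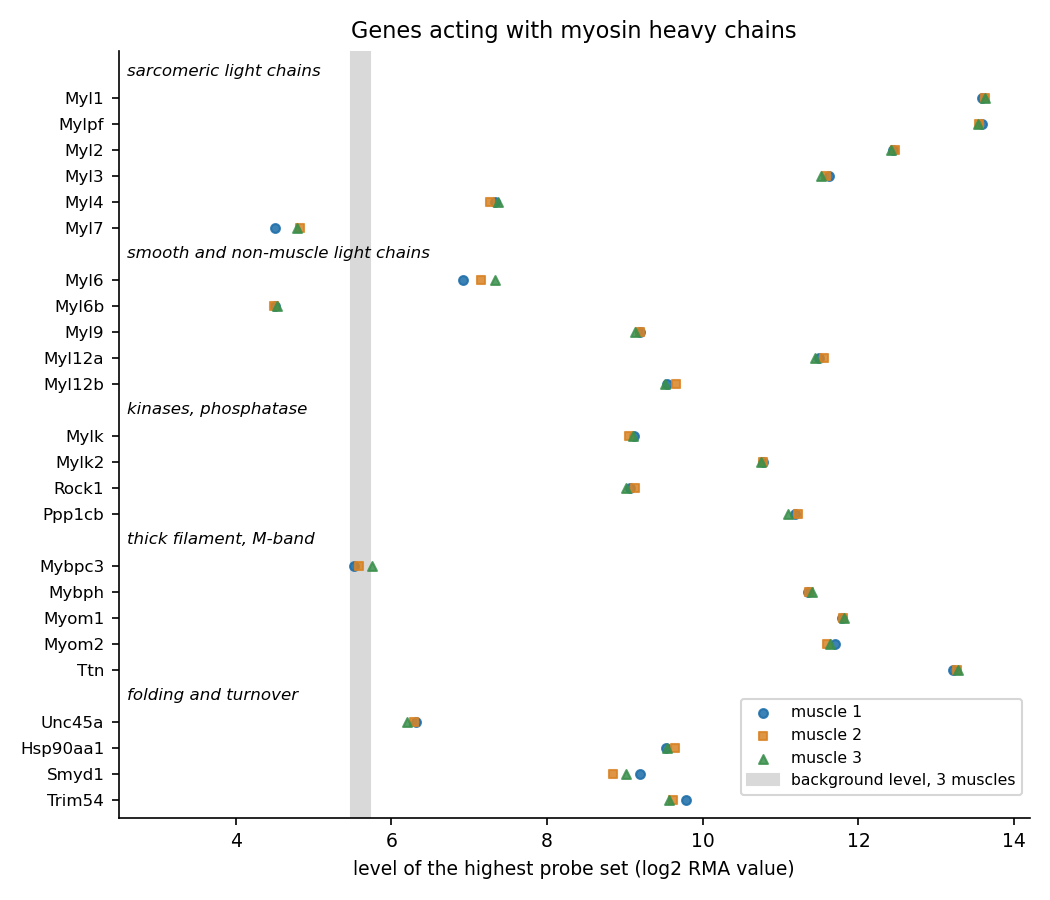
Levels in 3 muscles (log2 RMA value, highest probe set of each gene) of the measured light chains, light chain kinases and phosphatase, thick filament and M-band genes, and genes of myosin folding and turnover; points are muscles and the grey band spans the background levels, 5.48 to 5.73. Points of a gene mostly overlap, the widest separation among detected genes being that of Myl6, 0.41; Myl7 and Myl6b lie below the band.

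Other class II heavy chains were measured for 2 of 6 genes. Myh6 was not detected. Myh14, which encodes non-muscle myosin 2C, was detected and gave 7.77, 7.33 and 7.85 in muscles 1, 2 and 3, a mean of 7.65 ± 0.28 (SD, n = 3), and muscle 2 was apart from the other pair. Markers that accompany the chains by fibre type were detected in full, with 8 of 8 fast fibre genes and 8 of 8 slow fibre genes above background in every muscle. Their median departures in muscle 3 were 0.01 and -0.02. There 6 of 8 fast fibre genes and 1 of 8 slow fibre genes were higher, against 39.2% of all probe sets tested. The counts take no account of size: departures of the fast fibre genes ran from -0.03 to 0.05, the smallest being 0.0004. The detected fast heavy chains were lower in muscle 3, by margins as small. This difference between lists was not tested. Since Myh9 is expressed in most cell types, markers of further cell types in the tissue were set beside it. Detected in all muscles were 9 of 9 fibroblast genes, 8 of 8 endothelial genes and 6 of 8 leukocyte genes. So were 3 of 4 adipocyte genes and 3 of 4 Schwann cell genes, where the share over all genes was 62.4%. With the background at the 99th percentile the endothelial count became 6 and the Schwann cell count 2, and the others were unchanged. In muscle 3 the median departure was -0.11 for endothelial, -0.16 for leukocyte, -0.03 for fibroblast, -0.03 for adipocyte and 0.04 for Schwann cell genes, against -0.03 for all probe sets tested. The genes higher in muscle 3 were 2 of 8 endothelial, 1 of 7 leukocyte, 0 of 9 fibroblast, 2 of 4 adipocyte and 2 of 4 Schwann cell genes, against 39.2% of all probe sets tested. The summed linear signal in muscles 1, 2 and 3 was 1438, 1484 and 1350 for the endothelial list and 2815, 2873 and 2570 for the leukocyte list. It was 27419, 28016 and 27002 for fibroblast, 7619, 8275 and 8287 for adipocyte and 3768, 3755 and 3751 for Schwann cell genes. Every endothelial gene was detected, and Itgam was the leukocyte gene below background throughout. The part of these cell types in the Myh9 values was not tested, nor was that of smooth muscle in the Myh11 values.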

How the data were processed

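RNA of 3 samples of normal muscle was labelled with biotin and hybridised to 1 array each, per the labels' protocols. The authors deposited log2 values for 22690 probe sets, and the submitters' processing notes name RMA, whose quantile step hides changes shared by most genes. The arrays normalized together are not stated in these sources. Platform annotation gave 1 gene for 20393 probe sets, several for 691 and none for 1606; 20364 matched RefSeq (GRCm38.p6) by gene number.

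Probe sets detected in at least 1 muscle (12508) entered limma 3.58.1 (R 4.3.3). The variance over the muscles was compared with limma's prior (robust, trend on level) in an F test, one-sided, adjusted by Benjamini-Hochberg at 0.05. The method was tested on simulated data in which 1 muscle was moved in 200 of the 12508 probe sets. It called 38% of these after a move of 1 and 98.5% after a move of 2, besides 3 and 6 that were not moved. With no move it called 0. Other steps used Python 3.11.15.

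A departure is a muscle's level minus the mean of the other 2, and a range is highest minus lowest. Of 74 listed background genes 63 were measured. Genes that are no member came from 22 lists, by highest probe set, and the rule named the first 4 measured of each; Myl7, Myl12b, Myocd and Itgam were named after their values were seen. Members and lists were chosen with earlier results of these data known. No gene of like pattern is named, since a correlation over 3 samples is not reported. Alternatives were other normalizations, background percentile, filter and limma settings, leaving out shared probe sets or each muscle, and 1 value per gene.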

Additional observations from a re-analysis of the deposited data

How the results depend on the processing

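Under each of the 12 alternatives limma's variance test called 0 heavy chain probe sets at an adjusted p under 0.05 and between 0 and 2 at an unadjusted p under 0.05. Over all probe sets it called 12 as reported, 25 after quantile normalization, 17 without the filter, 8 at the 99th percentile, 6 with the highest probe set of each gene, 2 without muscle 2, 2 without muscle 3, and 0 without muscle 1, with no trend, with a prior that is not robust and with the mean per gene (552, 423, 518 and 338 at an unadjusted p under 0.05). The lowest adjusted p among heavy chains ran from 0.55 after quantile normalization to 0.99 with the highest probe set of each gene. The 12 detected probe sets became 11 at the 99th percentile, without Myh8, and 10 without shared probe sets. Their median SD of 0.063 became 0.074 without shared probe sets and 0.079 without the filter, which adds dim probe sets, and ran from 0.034 without muscle 3 to 0.053 without muscle 1; those SDs rest on 2 values each. No fast probe set was lower in muscle 2 than the mean of the others as reported; the count was 1 after quantile normalization, and between 0 (without muscle 1) and 1 (without muscle 3) with 1 muscle fewer. In muscle 1 the count of fast probe sets lower was 1, and from 0 without muscle 2 to 3 without muscle 3; of all 12 it was 5, and from 4 without muscle 2 to 8 without muscle 3. The median departure of the 12 in muscle 1 turned from 0.02 to -0.0056 without muscle 3. The cause was not tested. No paired analysis was possible because there is a single group. Dim probe sets, nearest to background, limit what can be said of Myh8 and of the second Myh11 probe set.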
